A study of Arabidopsis thaliana with 6 samples.

Results

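Transcripts of 10 nuclear genes for the core of DNA replication were followed in Arabidopsis thaliana seedlings. They are the 6 subunits of the MCM2 to MCM7 helicase, the clamp genes PCNA1 and PCNA2, and TSO2 and RNR1, a small and the large subunit of ribonucleotide reductase. The members were picked as a list of gene identifiers by their role, with earlier results of these data known, and all 10 of them, among 32744 genes in the count tables, passed the filter on low counts. The libraries held total RNA depleted of ribosomal RNA from untreated seedlings grown on media to Boyes growth stage 1.04, a stage defined by leaf number. One group of 3 libraries was wild type, and the other group of 3 was labelled as a double mutant that combines AT4G15640 with AT3G21465; the series title calls the genes mitochondrial and uncharacterised. The titles call the mutant mtran1-2-2-1 without saying which allele of which gene that stands for, the labels do not say how many plants a library holds, and a whole seedling mixes dividing and mature tissue.

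Before a cell divides it copies its DNA once. MCM2 to MCM7 form a ring-shaped motor that is loaded on origins by the origin recognition complex, CDC6 and CDT1, and that later unwinds the helix together with CDC45 and the GINS proteins. PCNA is a ring of identical subunits that slides on DNA behind the fork and holds the polymerases and the ligase, and ribonucleotide reductase makes the deoxyribonucleotides that the polymerases consume. In seedlings these transcripts are known to be most abundant in meristems and young organs, and many S-phase genes of plants are controlled by E2F factors, which bind promoter sites.

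The sequence upstream of the members was examined because E2F sites are a feature that the choice of members did not use. Words of 8 letters that match the E2F consensus (TTTCCCGC, TTTGGCGC, TTTCGCGC and TTTGCCGC, either strand, overlapping matches counted) were looked for in the 250 bases before the annotated start, in the TAIR10.1 sequence of RefSeq. Only these words were counted, and close variants were left out. MCM2, MCM3, MCM4, MCM5 and MCM6 each had 1 such word, and MCM7, PCNA1, PCNA2, TSO2 and RNR1 had none. The word was found in 422 of 32546 windows of nuclear genes of the same length and in 14 of 62 windows of other DNA replication genes. Site II words (TGGGCC or TGGGCT, either strand), which were described in the promoters of PCNA and of many genes of dividing cells, were in the windows of 7 of the 10 members and in 5864 of the 32546 windows; MCM7, PCNA1 and TSO2 had none. A match is a description of the letters and no evidence of binding. The windows of MCM2 (chr1:16969964-16970213, plus strand), MCM5 (chr2:3527501-3527750, minus strand), MCM6 (chr5:18010668-18010917, minus strand) and PCNA2 (chr2:12651754-12652003, minus strand) are shown 5′ to 3′ on the gene's strand, ending at the base before the start. They were chosen to set helicase genes with an E2F word beside the clamp gene that differed between genotypes. Capitals mark E2F and site II words:
MCM2: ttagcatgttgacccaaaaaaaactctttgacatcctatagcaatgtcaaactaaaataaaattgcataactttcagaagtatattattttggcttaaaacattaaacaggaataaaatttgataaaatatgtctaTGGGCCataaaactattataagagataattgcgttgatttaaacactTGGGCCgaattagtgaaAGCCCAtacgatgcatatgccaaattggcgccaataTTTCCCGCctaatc
MCM5: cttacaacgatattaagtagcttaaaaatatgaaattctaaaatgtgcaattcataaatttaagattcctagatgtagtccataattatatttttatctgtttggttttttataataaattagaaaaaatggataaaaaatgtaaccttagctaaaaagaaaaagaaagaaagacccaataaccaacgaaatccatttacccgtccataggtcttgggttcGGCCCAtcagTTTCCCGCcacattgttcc
MCM6: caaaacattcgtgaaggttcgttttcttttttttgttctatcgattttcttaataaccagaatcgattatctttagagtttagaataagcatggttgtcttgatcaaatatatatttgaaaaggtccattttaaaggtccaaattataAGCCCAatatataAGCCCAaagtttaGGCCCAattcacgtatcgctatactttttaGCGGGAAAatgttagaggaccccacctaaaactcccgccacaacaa
PCNA2: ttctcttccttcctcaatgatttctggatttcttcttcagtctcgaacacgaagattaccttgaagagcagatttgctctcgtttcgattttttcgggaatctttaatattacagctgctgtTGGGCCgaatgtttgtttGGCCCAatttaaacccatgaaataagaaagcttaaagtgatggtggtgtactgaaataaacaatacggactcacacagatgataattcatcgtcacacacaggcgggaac

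In these windows the E2F word is TTTCCCGC in MCM2 and MCM5, starting 14 and 19 bases before the start, and GCGGGAAA, its form on the other strand, in MCM6, starting 46 bases before it. The remaining capitals are site II words, 3 in MCM2, 1 in MCM5, 3 in MCM6 and 2 in PCNA2.

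Total counts ran from 53193772 to 78671470 per library. Of the genes named in the mutant label, AT3G21465 had lower counts in the second group (log2 fold change -0.78 ± 0.08, SE; edgeR adjusted p = 8.95e-05), whereas AT4G15640 did not pass the test (0.16 ± 0.08, SE; edgeR adjusted p = 0.121) and passed as higher without wild type replicate 2 (adjusted p over alternatives 0.0338 to 0.330). For that reason the second group appears as the labelled mutant libraries, and each direction given depends on the label. Green tissue markers were abundant in every library, with 5 markers summing to between 4597 and 9348 CPM. CPM stands for counts per 1e6 counts of a library after TMM scaling. The 7 floral and seed markers summed to at most 4.25 CPM. Libraries of the same group stood apart in all members at the same time. Wild type replicate 2 held the highest wild-type value of all 10 members, and labelled mutant replicate 1 the lowest labelled mutant value of all 10. Over all 21805 tested genes the same libraries were the extreme in 33.8% and 36.8% of cases. Wild type replicate 1 was the lowest wild-type library for 9 members, the exception being TSO2, and for 37.3% of all tested genes. For all 7 mitotic markers, too, wild type replicate 2 was highest and labelled mutant replicate 1 lowest in its group. The highest labelled mutant library was mostly replicate 3 for the members (8 of 10) and replicate 2 for the mitotic markers (6 of 7). Over all tested genes these libraries were highest in 31.3% and 32.4% of cases. Other DNA replication genes shared the members' pattern. Of 62, wild type replicate 2 was highest for 47, labelled mutant replicate 1 lowest for 47 and labelled mutant replicate 3 highest for 44. The sum of 7 root markers was highest in wild type replicate 1, at 40.9 CPM against 29.4 and 32.2 CPM in replicates 2 and 3, and the sum of 9 meristem and young organ markers was lowest there, at 25.6 CPM against 34.9 and 34.8 CPM. The same meristem sum was 26.5 CPM in labelled mutant replicate 1 and 34.1 and 35.4 CPM in replicates 2 and 3. The part of tissue composition in the members' values was not tested, and in whole seedlings fewer dividing cells and less RNA per cell cannot be told apart.

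**Figure D1:**
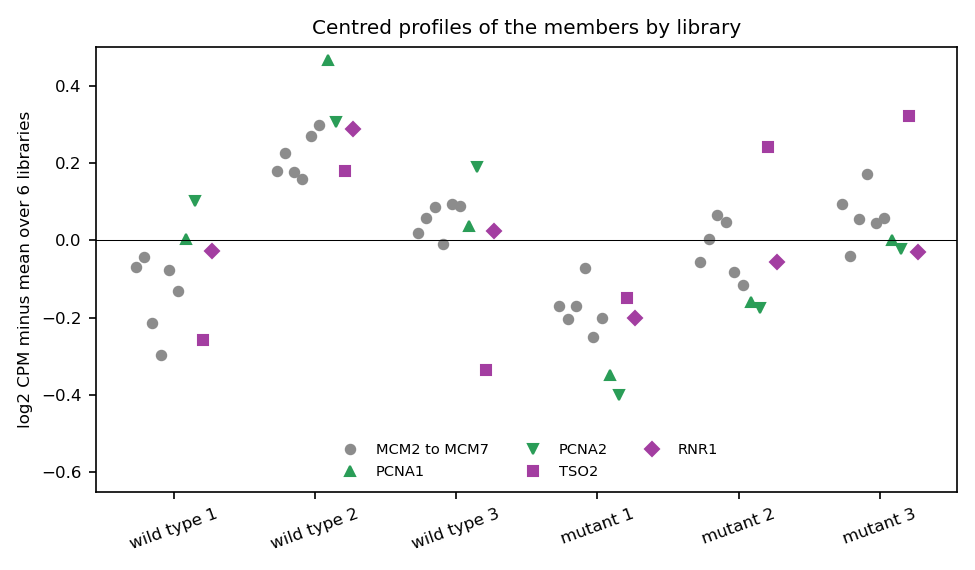
Log2 CPM of each of the 10 members minus its mean over the 6 libraries, by library; grey circles are MCM2 to MCM7, green triangles the PCNA genes and purple symbols TSO2 and RNR1. All members are at their group's highest value in wild type replicate 2 and at their group's lowest in labelled mutant replicate 1.

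The helicase transcripts showed no called difference between the genotypes. MCM2 to MCM7 had log2 fold changes (labelled mutant over wild type) between -0.20 and 0.08, with a median of -0.13. In the main fit (edgeR on all 6 libraries, group as the only term) no MCM gene passed an adjusted p under 0.05. None passed there at an unadjusted p under 0.05 either, and DESeq2 and limma-voom called none of them. At that unadjusted threshold 2 of the 10 members were lower in the main fit. With the replicate block 5 were lower, and without wild type replicate 1 it was 6, so MCM genes were among those. Among all 10 members the main fit called 1 gene, PCNA2, as lower, and none as higher. It gave 0 higher at an unadjusted p under 0.05, and DESeq2 and limma-voom called 0 higher. Of all tested genes 52.4% were called by the main fit (26.0% lower and 26.3% higher). The 95% intervals give the differences that the data still allow: their lower ends ran from -26.1% for MCM6 to -11.3% for MCM5, and their upper ends from 2.22% for MCM3 to 26.8% for MCM5.

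MCM2, the subunit AT1G44900 on chromosome 1 (16970214 to 16974753, plus strand, 16 exons), had 18.3, 21.7 and 19.4 CPM in wild type replicates 1 to 3 and 17.0, 18.4 and 20.4 CPM in the labelled mutant replicates 1 to 3. The groups overlapped, and the difference on the log2 scale was -0.09 ± 0.09 (SE; edgeR adjusted p = 0.425). MCM5 (AT2G07690, chromosome 2, 3522984 to 3527500, minus strand, 18 exons), which forms with MCM2 the place where the ring opens, had 12.7, 17.5 and 15.5 CPM in wild type and 14.9, 16.2 and 17.6 CPM in the labelled mutant libraries. Its labelled mutant values lay within or just above the wild-type range, and its log2 fold change, 0.08 ± 0.11 (SE; edgeR adjusted p = 0.559), was the only positive value in the helicase. No stretch of 50 bases of the exons of any member occurs in an organelle genome.

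MCM6 (AT5G44635, chromosome 5, 18006212 to 18010667) had the lowest level of the 6 subunits per length and the largest negative fold change, with 11.1, 14.1 and 12.5 CPM in wild type and 9.85, 11.1 and 12.1 CPM in the labelled mutant libraries. The groups overlapped (log2 fold change -0.20 ± 0.11, SE; edgeR adjusted p = 0.146). MCM7 (AT4G02060, chromosome 4, 900636 to 905591), known in Arabidopsis as PROLIFERA, had 18.3, 24.6 and 21.3 CPM against 17.4, 18.5 and 20.9 CPM. Here labelled mutant replicates 2 and 3 lay inside the wild-type range and replicate 1 below it, at -0.18 ± 0.11 on the log2 scale (SE; edgeR adjusted p = 0.203). MCM3 (AT5G46280) and MCM4 (AT2G16440) ranged over 14.9 to 20.02 CPM and 12.4 to 16.3 CPM across the 6 libraries, with log2 fold changes of -0.16 ± 0.09 and -0.04 ± 0.11 (SE). The calls changed without wild type replicate 1, the wild-type library with the lowest helicase values. Without it MCM6 and MCM7 passed as lower, at log2 fold changes of -0.28 and -0.28 (edgeR adjusted p over alternatives 0.0457 to 0.428 and 0.0377 to 0.607), and the number of members called lower rose from 1 to 5, with PCNA1, PCNA2 and RNR1 as the others. Without that library 5587 of 22071 tested genes were called lower. Leaving out other single libraries moved the fold changes as far as -0.11 for MCM6 and -0.07 for MCM7.

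**Figure D2:**
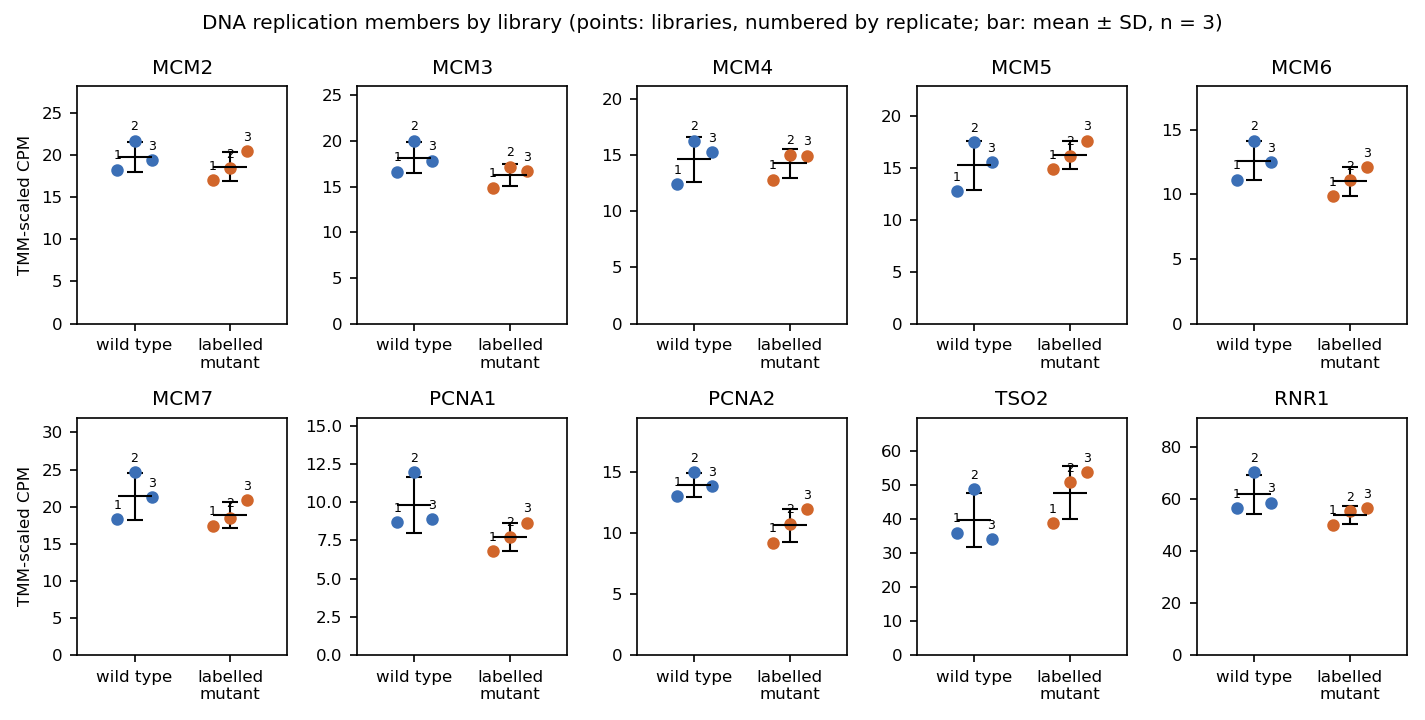
TMM-scaled CPM of each member in 3 wild-type (blue) and 3 labelled mutant libraries (orange), numbered by replicate, with mean and SD as bars; each vertical axis starts at 0. The groups overlap in 7 of the 10 panels, and PCNA1, PCNA2 and RNR1 are the 3 members with every labelled mutant library below every wild-type library.

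Levels of different genes were compared as CPM per kilobase of exon. MCM7 was the highest and MCM6 the lowest subunit in each of the 6 libraries, and the ratio of the highest to the lowest lay between 1.81 and 1.95. Of the 15 ratios between subunits, 7 did not overlap between the groups, and MCM5 was in 4 of them. Among levels of single genes, 61.8% of all tested genes did not overlap in either direction. The share for ratios between other genes was not computed. The subunit ratios were looked at after the values were seen and were not tested. MCM5 to MCM6 per length was 1.24, 1.34 and 1.35 in wild type and 1.64, 1.58 and 1.58 in the labelled mutant libraries. MCM2 to MCM5 was 1.21, 1.05 and 1.06 in wild type and 0.966, 0.963 and 0.981 in the labelled mutant libraries, so MCM5 stood higher there beside MCM2 and MCM6. The sum of the 6 subunits was 31.0, 39.7 and 35.4 CPM per kilobase in wild type and 30.2, 33.5 and 35.7 CPM per kilobase in the labelled mutant libraries. The labelled mutant sums overlapped the wild-type ones, with a log2 difference of -0.09 (exact two-sided permutation p = 0.5; adjusted p = 0.5 over 3 tests; 0.1 is the smallest p that 3 against 3 libraries allow). Nuclear genes took 41.0% to 43.3% of the counts in wild type and 46.7% to 51.3% in the labelled mutant libraries. Scaled to nuclear counts in place of TMM totals the summed difference was 0.01, and that scale moved the median of all tested genes by 0.102 on the log2 scale. On it MCM2 and MCM4, which were slightly negative, had positive differences of 0.02 and 0.07, and PCNA2 was still lower in every labelled mutant library than in any wild-type library, while the groups of PCNA1 and RNR1 overlapped.

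In order of level per length, wild type ran from TSO2 (23.4 ± 4.71 CPM per kilobase, SD, n = 3) and RNR1 (20.6 ± 2.48) through PCNA2 (11.8 ± 0.838), PCNA1 (8.70 ± 1.62) and MCM7 (8.08 ± 1.199) to MCM2 (6.21 ± 0.5496), MCM3 (5.98 ± 0.566), MCM5 (5.67 ± 0.884), MCM4 (5.12 ± 0.7002) and MCM6 (4.31 ± 0.518). Wild-type ranges of neighbours in this order overlapped except between RNR1 and PCNA2, between PCNA2 and PCNA1, and between MCM7 and MCM2. The first 3 and the last 2 places were held by the same genes in the labelled mutant libraries, where MCM7 stood above PCNA1 and MCM5 above MCM2 and MCM3.

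Both clamp genes had lower values in the labelled mutant libraries, and PCNA2 alone passed the test. PCNA2 (AT2G29570, chromosome 2, 12649906 to 12651753, minus strand, 4 exons) had 13.0, 15.0 and 13.8 CPM in wild type and 9.21, 10.8 and 12.0 CPM in the labelled mutant libraries. All labelled mutant values lay below all wild-type values, by -0.39 ± 0.10 on the log2 scale (SE; edgeR adjusted p = 0.0103), which is a change of -23.9% with a 95% interval from -35.1% to -10.8%. The call held in all 12 alternatives, with adjusted p between 0.00181 and 0.0392. PCNA1 (AT1G07370, chromosome 1, 2263037 to 2264553, plus strand, 4 exons) had 8.67, 11.9 and 8.88 CPM in wild type and 6.80, 7.74 and 8.65 CPM in the labelled mutant libraries. Its groups did not overlap either, but labelled mutant replicate 3 lay within 0.1 CPM of the lowest wild-type library. Its difference on the log2 scale, -0.35 ± 0.14 (SE; edgeR adjusted p = 0.0597), passed in 5 of 12 alternatives, which were the DESeq2 test, the fit without a filter on low counts, the replicate block, and the fits without wild type replicate 1 or labelled mutant replicate 3 (adjusted p over alternatives 0.0325 to 0.197). Over all members 3 had groups that did not overlap with the labelled mutant lower and none with it higher, where 29.8% and 32.1% of all tested genes had such a separation.

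Reads that fit several places were counted at each of them, so the similarity of the clamp genes matters for telling them apart. Their coding sequences (792 and 795 bases) differed at 115 of 792 positions, which is 85.5% identity, and the longest identical run was 41 bases, from position 442 to 482 counted from the start codon. That stretch is shown with 20 coding bases on each side, and capitals mark the bases that differ:
PCNA1: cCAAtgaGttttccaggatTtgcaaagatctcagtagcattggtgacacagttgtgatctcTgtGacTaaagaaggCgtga
PCNA2: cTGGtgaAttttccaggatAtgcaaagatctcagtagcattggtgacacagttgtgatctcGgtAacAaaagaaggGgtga
No member shared a stretch of 50 exon bases with another gene, so an exact match of that length within an exon fits a single clamp gene. The ratio of PCNA1 to PCNA2 per length was 0.697, 0.834 and 0.671 in wild type and 0.773, 0.753 and 0.758 in the labelled mutant libraries. The labelled mutant ratios lay inside the wild-type range (log2 difference 0.06, exact two-sided permutation p = 0.5; adjusted p = 0.5), and a difference in the response of the pair was not detectable with 3 libraries a group.

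Of the reductase subunits TSO2 had a higher and RNR1 a lower mean in the labelled mutant libraries, and neither passed the test. TSO2 (AT3G27060, chromosome 3, 9979841 to 9981620, minus strand, 2 exons), the small subunit with the main role in Arabidopsis development, had 36.0, 48.8 and 34.1 CPM in wild type and 38.8, 50.9 and 53.8 CPM in the labelled mutant libraries. Labelled mutant replicates 2 and 3 lay above every wild-type library and replicate 1 among them, and its difference on the log2 scale, 0.27 ± 0.16 (SE; edgeR adjusted p = 0.179), did not pass. It passed as higher without wild type replicate 2, at 0.45 (edgeR adjusted p over alternatives 0.0290 to 0.441). TSO2 overlaps a neighbour on its strand, AT3G27050, over 3 bases of exon only. RNR1 (AT2G21790, chromosome 2, 9293261 to 9297861, plus strand, 17 exons), the catalytic large subunit, had 56.4, 70.25 and 58.5 CPM in wild type and 50.1, 55.3 and 56.4 CPM in the labelled mutant libraries. Every labelled mutant value was below the wild-type values, although labelled mutant replicate 3 (56.36 CPM) and wild type replicate 1 (56.43 CPM) nearly met, and the difference on the log2 scale was -0.20 ± 0.09 (SE; edgeR adjusted p = 0.103; 0.0466 to 0.319 over alternatives, with a call only without wild type replicate 1).

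The ratio within a library was compared as well. The ratio of TSO2 to RNR1 per length was 1.13, 1.23 and 1.03 in wild type and 1.37, 1.63 and 1.69 in the labelled mutant libraries, with no overlap. The mean log2 ratio was 0.18 ± 0.13 and 0.64 ± 0.16 (SD, n = 3 each), a 1.38-fold higher ratio; the exact two-sided permutation p was 0.1, the smallest this design allows, and 0.3 adjusted over 3 tests. With each library left out the difference ranged from 0.40 to 0.56 on the log2 scale. Its sign could not change there, because the groups do not overlap. RNR2A (AT3G23580), the other small subunit gene measured, fell from 16.5 ± 0.609 to 13.9 ± 0.615 CPM (SD, n = 3 each; log2 fold change -0.25 ± 0.06, SE; edgeR adjusted p = 0.00918), with all 3 labelled mutant libraries lower. The ratio of TSO2 to RNR2A per length, looked at after these values were seen and not tested, was 2.27, 2.87 and 2.03 in wild type and 2.65, 3.74 and 3.96 in the labelled mutant libraries, which overlap.

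**Figure D3:**
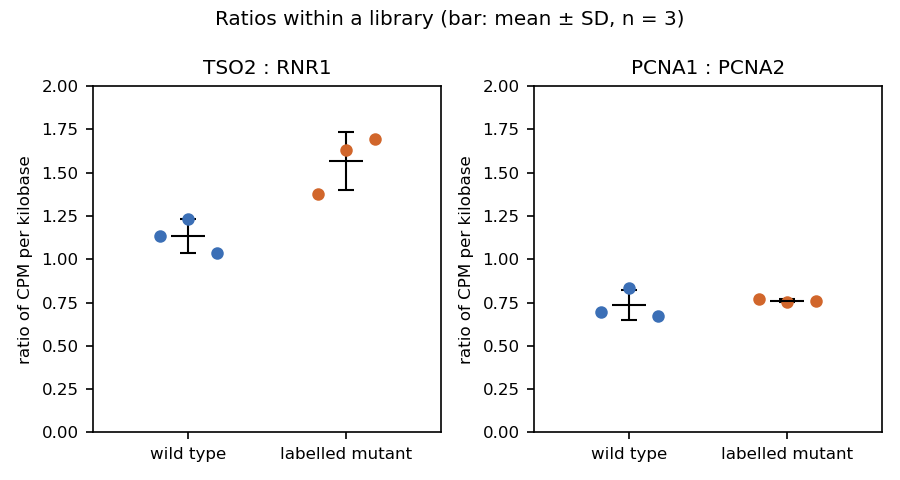
Ratio of CPM per kilobase within each library for TSO2 to RNR1 (left) and PCNA1 to PCNA2 (right), in wild type (blue) and labelled mutant (orange), with mean and SD as bars. The ratio of TSO2 to RNR1 is 1.03 to 1.23 in wild type and 1.37 to 1.69 in the labelled mutant libraries, whereas the PCNA ratios overlap.

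**Figure D4:**
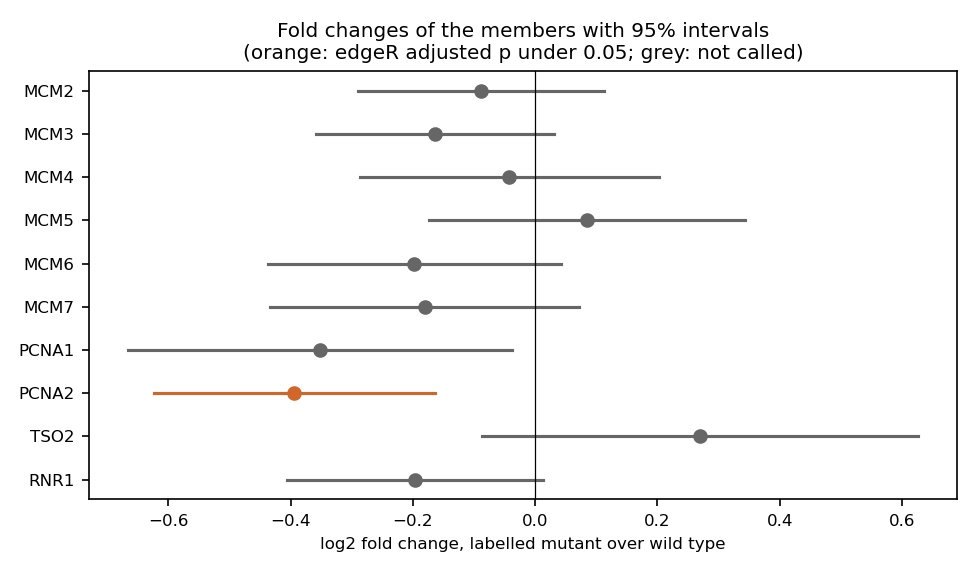
Log2 fold change of each member, labelled mutant over wild type, with its 95% interval; orange marks an edgeR adjusted p under 0.05. PCNA2 at -0.39 is the sole call, and the intervals of the 6 helicase genes all include 0.

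Around the members, other genes of DNA replication were called lower more often than higher. Of 61 tested genes in 8 lists 22 were lower and 5 were higher. Their median on the log2 scale was -0.15, against 26.0% lower, 26.3% higher and a median of 0.01 over all tested genes; 44.3% of them were called. Leaving out labelled mutant replicate 2 or 3 reduced the 5 higher genes to 3 or 2. The lower genes, 22 in the main fit, numbered 16 to 23 with single libraries left out. In each list that had no call in one direction, DESeq2 and limma-voom made none there either; at an unadjusted p under 0.05 edgeR gave 1 higher gene in replication protein A, 1 higher in the damage response and 1 lower among the meristem markers, and 0 in the other such lists.

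Factors that load the helicase gave 5 lower and none higher of 11. CDC6A, an ATPase that helps to place the helicase on origins, fell from 4.40 ± 0.366 to 2.28 ± 0.158 CPM (SD, n = 3 each; log2 fold change -0.95 ± 0.11, SE; edgeR adjusted p = 0.000119). CDT1B, a paralogue of its partner CDT1A, fell by 0.63 ± 0.13 (SE) on the log2 scale, and CDC6B, which shares 3 stretches of 50 bases with CDC6A, by 0.53 ± 0.14. The origin recognition subunits ORC6 and ORC5 had log2 fold changes of -0.40 ± 0.13 and -0.26 ± 0.07 (SE); the ORC5 call ended without labelled mutant replicate 3 (range of adjusted p 0.0112 to 0.0598). CDT1A itself did not pass (-0.15; edgeR adjusted p = 0.244).

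Partners of the helicase at the fork went both ways, with 2 lower and 2 higher of 10. PSF1, a GINS subunit, stood at -0.47 ± 0.09 on the log2 scale (SE; edgeR adjusted p = 0.00242) and CDC45 at -0.49 ± 0.15. MCM8, a relative of the helicase subunits that acts in recombination, was higher by 0.44 ± 0.11 (edgeR adjusted p = 0.00876), from 2.66 ± 0.262 to 3.61 ± 0.191 CPM (SD, n = 3 each). PSF3B (0.23) shares 37.2% of its 50-base stretches with PSF3A, so the reads of that pair are not fully separated. The PSF3B call ended in 9 of 12 alternatives (adjusted p 0.0387 to 0.135).

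The list of clamp loader, ligase and flap nuclease genes gave 2 lower and 1 higher of 7: the DNA ligase LIG1 (-0.26 ± 0.06, SE) and the loader subunit RFC4 (-0.26 ± 0.08) were lower and the large loader subunit RFC1 (0.22 ± 0.06) was higher. The polymerase and primase list had 1 lower and 2 higher of 10 tested; POL2B, at most 0.16 CPM, did not pass the filter. The primase subunit POLA4 (AT5G41880, with the symbol POLA3 in RefSeq) was lower (-0.31 ± 0.11, SE). The polymerase delta subunits POLD4 (0.29 ± 0.08) and POLD1 (0.24 ± 0.07) were higher. The calls of CDC45, RFC4 and POLA4 all ended without wild type replicate 2 or 3 or labelled mutant replicate 1 or 2 (ranges of adjusted p 0.00464 to 0.0957, 0.00360 to 0.0856 and 0.0194 to 0.128). Calls of RFC1, POLD1 and POLD4 ended without labelled mutant replicate 2, without labelled mutant replicate 3, and without wild type replicate 3 or labelled mutant replicate 3, in that order (0.0138 to 0.0592, 0.0191 to 0.0774 and 0.0143 to 0.0683).

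Single-strand binding and nucleotide supply genes were lower where they passed. In replication protein A, which coats single-stranded DNA, 3 of 9 were lower and none higher: RPA3B (-0.69 ± 0.08, SE), RPA1B (-0.56 ± 0.08) and RPA2B (-0.35 ± 0.11), of which RPA2B was lost without the same 4 libraries as CDC45 (adjusted p over alternatives 0.00684 to 0.104). Besides ribonucleotide reductase, 3 of 5 genes of nucleotide supply were lower and none higher. DUT1, the dUTPase, fell from 11.8 ± 1.23 to 7.64 ± 0.561 CPM (SD, n = 3 each; log2 fold change -0.63 ± 0.09, SE; edgeR adjusted p = 0.000606), and the thymidine kinases TK1B and TK1A had -0.58 ± 0.13 and -0.44 ± 0.09, whereas THY1 and THY2, the thymidylate synthases, had 0.01 each without a call. Chromatin assembly had 5 lower and none higher of 8. The canonical histone H3 genes HTR1 (-0.64 ± 0.11, SE), HTR2 (-0.53 ± 0.10), HTR3 (-0.44 ± 0.07) and HTR9 (-0.43 ± 0.08) and the assembly factor FAS1 (-0.21 ± 0.07) were lower. HTR3 overlaps another gene over 328 bases of exon and shares sequence with HTR9, and ribosome-depleted RNA does not depend on a poly(A) tail.

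**Figure D5:**
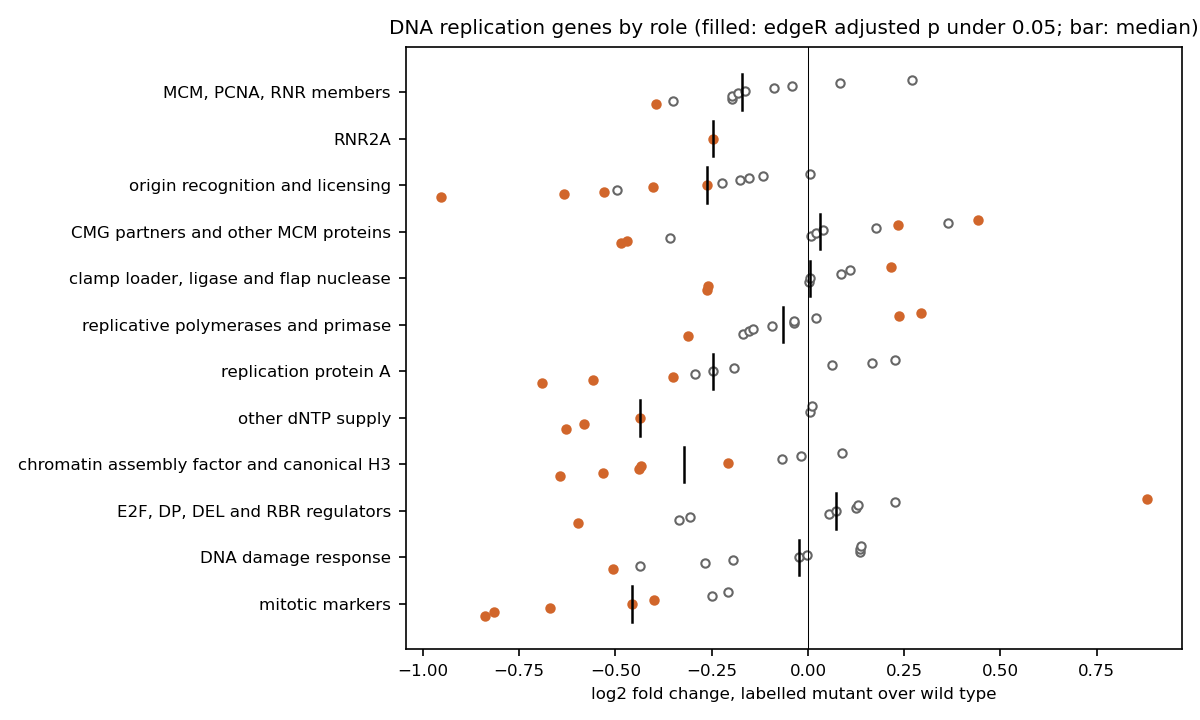
Log2 fold changes of the tested genes of each list, with filled points for an edgeR adjusted p under 0.05 and a bar at the median. The members' median is -0.17; among replication lists nucleotide supply (-0.44) has the lowest median beside the mitotic markers (-0.46).

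Genes upstream of S phase and genes of the damage response changed in few cases. Of 9 regulators of the E2F, DP, DEL and RBR families, DEL2, an atypical E2F, was higher (0.88 ± 0.12, SE; edgeR adjusted p = 0.000326) and DEL3 lower (-0.60 ± 0.18; edgeR adjusted p = 0.0199; lost without wild type replicate 2 or either of labelled mutant replicates 1 and 3; range over alternatives 0.00473 to 0.0710). RBR1, the repressor that E2F factors bind, and the activators E2FA and E2FB did not pass (0.13, -0.31 and 0.07). Of 9 DNA damage genes BRCA1 was lower (-0.51 ± 0.12, SE; edgeR adjusted p = 0.00614) and none was higher. By the upstream windows, 4 of 14 other replication genes with an E2F word were lower and 1 was higher, and 18 of 47 without a word were lower and 4 higher; the difference was not tested.

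Mitotic markers gave 5 lower and none higher of 7 tested, and their median was -0.46 on the log2 scale. KNOLLE, the syntaxin of the cell plate, fell from 19.5 ± 3.14 to 11.1 ± 0.747 CPM (SD, n = 3 each; log2 fold change -0.82 ± 0.11, SE). The B-type cyclin CYCB1;2 had -0.84 ± 0.13 and CDKB2;1, a kinase of mitosis, -0.46 ± 0.11. CYCB1;2 shares 11.3% of its 50-base stretches with AT1G34460. CDC20.1, an activator of the anaphase-promoting complex, had -0.67 ± 0.13, but shares 33.2% of its 50-base stretches with AT4G33260. The difference between mitotic genes and the members was not tested. Of 7 tested meristem and young organ markers 3 were higher and none lower: the root meristem genes WOX5 (1.42 ± 0.24, SE), PLT2 (1.15 ± 0.18) and PLT1 (1.02 ± 0.24); WUS and CLV3, markers of the shoot meristem centre, were under 0.1 CPM on average. Of 7 root markers 4 were lower and 2 higher, with the endodermal genes CASP2 and CASP1 at -2.14 ± 0.33 and -2.09 ± 0.24. With limma-voom 3 were lower, and the call of SHR as higher ended without wild type replicate 2 or 3 or labelled mutant replicate 2 or 3 (adjusted p up to 0.119), while that of RHD6 held in all 12 alternatives. The root marker sum was 29.4 to 40.9 CPM in wild type and 24.1 to 25.02 CPM in the labelled mutant libraries, the meristem sum 25.6 to 34.9 and 26.5 to 35.4 CPM. The green tissue sum was 7799 to 9348 CPM in wild type and 4597 to 5428 CPM in the labelled mutant libraries, with 3 of 5 markers lower, among them RBCS1A (-1.20 ± 0.11, SE), a small subunit of Rubisco. The call of LHCB1.1 (edgeR adjusted p = 0.0422) ended in 5 of 12 alternatives, namely the replicate block and the fits without wild type replicate 1 or 2 or labelled mutant replicate 1 or 2 (adjusted p up to 0.130). The part of these differences in the members' values was not tested.

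The other replication genes whose library profile was nearest to the helicase were sought among 60 with a mean of at least 1 CPM. Likeness was the root mean square distance, over the 6 libraries, between a gene's centred log2 CPM and the mean of MCM2 to MCM7. The nearest were POLA1 (0.0476), POLA2 (0.0490), CDT1A (0.0554), FAS2 (0.0567) and POLA3 (0.0579). POLA1, POLA2 and POLA3 (here AT1G67320, EMB2813 in RefSeq) are subunits of DNA polymerase alpha and primase, which starts each new strand. The fourth subunit, POLA4 (here AT5G41880, which has the symbol POLA3 in RefSeq), was among the genes called lower. None of the 5 passed the test, with log2 fold changes between -0.15 and -0.02. The distance includes the difference between the groups, so fold changes near those of the helicase follow from how the 5 were chosen.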

How the data were processed

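RNA was sequenced in 6 libraries. The deposited files hold unnormalized read counts for each gene, one library to a table, from featureCounts 2.0.0 per the file headers. Reads were aligned with STAR to TAIR10 per the submitters' processing notes; the STAR version is not given in the sources used here. Per the file headers, reads were counted on the reverse strand over exons, and multi-mapped reads were included at all their places. The deposited exon length per gene was used for CPM per kilobase. Genotype and replicate number came from the titles, which number 3 libraries per group where the design text speaks of 2 biological replicates. Nothing states that libraries came from separate plants, so p-values cover only the spread among these libraries, and that spread may be technical. Library pairs within a group differed by more than sampling noise (chi-square per degree of freedom 11.2 to 39.8).

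The test was edgeR's (edgeR 4.0.16, R 4.3.3; TMM, filterByExpr, quasi-likelihood fit with group as the only term, two-sided, Benjamini-Hochberg over 21805 tested genes, threshold 0.05). The standard error is the log2 fold change divided by the square root of F, and intervals use the same error. The fit was tested on simulated data. Alternatives used DESeq2 1.42.0, limma 3.58.1, other scalings, no filter, a replicate block and each library left out. Ratios used exact permutation tests over libraries. All 125 list genes present in the tables had the same start and end in RefSeq's TAIR10.1, from which sequences were read; RNR2B was not analysed here. Sequence shared with other genes means exact stretches of 50 bases of exon on the strand of transcription. Members and lists were chosen with earlier results of these data known. Named genes are the members, the targeted genes, RNR2A, up to 4 called genes of each list with the smallest adjusted p, and the 5 nearest profiles; others were named after their values were seen.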

Additional observations from a re-analysis of the deposited data

How the results depend on the processing

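The call of PCNA2 as lower was present in all 12 alternative fits. The number of members called lower was 1 as reported, 2 with the DESeq2 Wald test, 2 without a filter on low counts and 2 with the replicate block, with PCNA1 as the added gene each time, and 1 to 5 with single libraries left out; the number called higher was 0 to 1 in those fits. Over all tested genes those fits called 4833 to 5587 lower and 4678 to 5659 higher. Members whose groups did not overlap numbered 3 to 7 (lower) and 0 to 1 (higher) with single libraries left out. The most lower ones came without wild type replicate 1, the lowest wild-type library for 9 members. Smaller groups separate more easily, and the share over all tested genes was not computed for these sets. Other replication genes called higher numbered 2 to 4 with single libraries left out, and those called lower 16 to 23. The log2 ratio difference of PCNA1 to PCNA2 ranged from -0.0022 to 0.15, and the summed helicase difference from -0.18 to -0.0032 and to 0.012 on nuclear totals, so neither has a settled sign. With single libraries left out the log2 fold changes of MCM4 (-0.15 to 0.0385), MCM5 (-0.0275 to 0.19), POLA2 (-0.11 to 0.0425) and FAS2 (-0.10 to 0.0642) changed sign; the cause was not tested. Deviations of same-numbered libraries from their group means had correlations of 0.192, 0.0715 and -0.00164 across genes. Those of differently numbered libraries ran from -0.145 to 0.0954. With 3 libraries a group these values cannot decide whether the numbers pair the libraries. The replicate block moved the members called lower from 1 to 2. At an unadjusted p under 0.05 it moved the lower members from 2 to 5 and the higher ones from 0 to 1. Each member had at least 420 counts in every library. Levels by coding length were not run. Scaling each member to nuclear counts was chosen after seeing the data.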
